A study of Macaca mulatta with 81 samples.

Results

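FOXP3, IL2RA, IKZF2, IKZF4 and LRRC32 are 5 genes by which regulatory T cells are recognised. Each was read from the probe set that the array's gene table pairs with that 1 symbol, and where a gene had several such probe sets the one with the highest mean over all 81 arrays was used. The 5 genes are part of 14132 genes with 1 chosen probe set, and all 5 were among the 11806 that passed the filter on low values, which asked for a log2 signal above 4.65 in at least 2 arrays.

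The arrays measured RNA of CD3 T cells sorted from the blood of 50 rhesus macaques. Of these, 27 animals had received a hematopoietic cell transplant and gave 47 arrays, and 34 arrays came from healthy, untransplanted animals; 11 animals gave both. The labels fall into 16 groups. Autologous recipients are Auto.D14 and Auto.D36, with 3 arrays each at days 14 and 36, and allogeneic recipients with no prophylaxis are NoRx.F, with 4 arrays. Tac.Mtx.D14, Tac.Mtx.D30 and Tac.Mtx.F, with 3, 2 and 3 arrays, are taken to be tacrolimus with methotrexate, and Bela.F, with 3 arrays, belatacept, a CTLA4 fusion protein that blocks CD28 costimulation. FR104.D14 and FR104.F, with 3 arrays each, are recipients of FR104, an antibody fragment against CD28. Sirolimus, an inhibitor of the kinase mTOR, is taken to be the Siro of Siro.F, Bela.Siro.D14, Bela.Siro.D30, Bela.Siro.F, FR104.Siro.D14 and FR104.Siro.F, with 4, 3, 3, 2, 4 and 4 arrays. The labels do not spell these names out. D marks the nominal day after transplant, F is a last sample with no day given, 1 of the Bela.Siro.D30 arrays is from day 29, and the FR104.Siro.D14 arrays are from days 14, 14, 22 and 34. The 6 sirolimus labels hold 20 arrays of 11 animals and the 7 other allogeneic labels 21 arrays of 13 animals, so animals recur between time labels but not between prophylaxes.

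Regulatory T cells hold other T cells in check and are studied in transplantation because they can restrain graft-versus-host disease. FOXP3 is their defining transcription factor, and IKZF2 (Helios) and IKZF4 (Eos) are Ikaros family zinc finger factors that are abundant in them, Eos as a partner of FOXP3 in gene repression. IL2RA (CD25) is the alpha chain of the high-affinity receptor for interleukin 2, which these cells need and which other T cells also make once activated; LRRC32 (GARP) holds latent TGF-beta on the surface of activated regulatory T cells and is found on platelets too.

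The sorted cells carried a T cell signal, as far as it could be read: of 7 T cell markers only CD5 and CD6 were measured by a probe set with 1 gene, and their mean lay between 8.65 and 9.54 in all 16 labels, on the log2 scale used throughout. Markers of other cells were present. The mean of 7 monocyte and myeloid markers was 6.07 ± 0.69 (SD, n = 34) in healthy animals and ran up to 8.51 in Bela.F, none of the 7 having a mean below the filter value, and 4 B cell markers averaged 5.16 to 5.99. The signal of the hybridization spike-ins was above every healthy array on 8 arrays, of which 4 make up FR104.Siro.D14 and the other 4 are spread over Bela.Siro.F, FR104.Siro.F, Auto.D14 and FR104.D14, 1 in each label. In bulk samples such as these, fewer cells of a type and less RNA per cell cannot be told apart.

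FOXP3 was nearly level across the study. Its label means ran from 4.57 in Bela.F to 5.09 in Tac.Mtx.D14, with 3 of the 6 sirolimus labels among the highest 5 and 2 of the 6 below the healthy mean of 4.87 ± 0.25 (SD, n = 34). Of the 15 steps between neighbours in that order, 2 were at least as large as the larger SD of the pair. In the healthy animals it ran from 4.31 through a median of 4.89 to 5.35, in the 20 sirolimus arrays from 4.61 through 4.90 to 5.65, and in the 21 other allogeneic arrays from 4.47 through 4.78 to 5.46. These ranges overlap almost completely, and 1 sirolimus array, 1 other allogeneic array and 0 of 6 autologous arrays stood above every healthy array. With limma, FOXP3 was called in 0 of 27 comparisons, and in 0 at an unadjusted p under 0.05; its smallest adjusted p was 0.242. The signal is low: the probe set's mean was at percentile 44.1 of all probe sets, and 68 of 81 arrays were above the filter value.

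**Figure D1:**
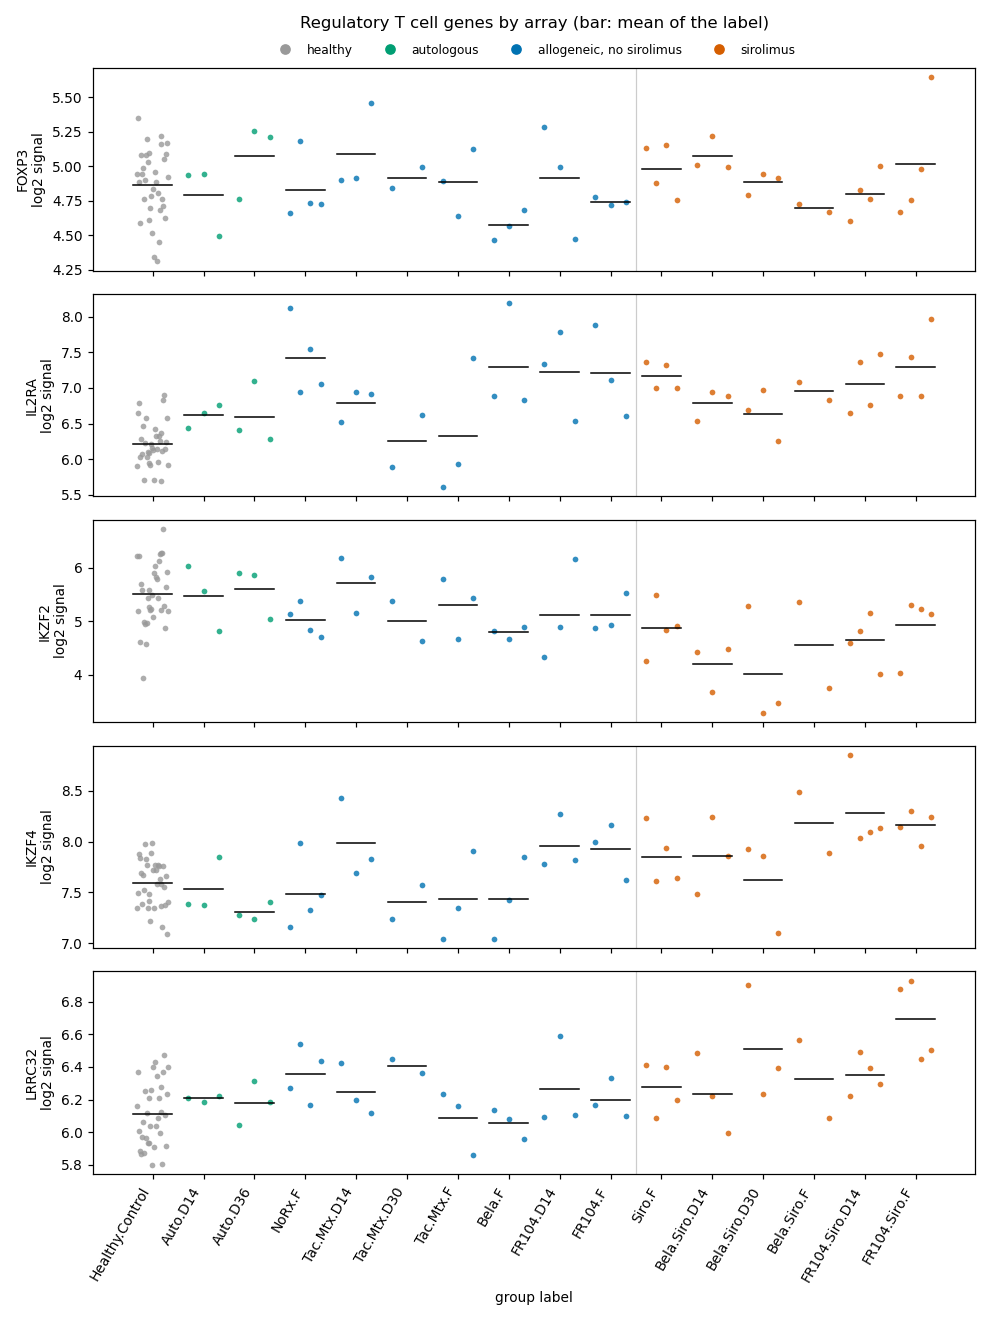
Log2 signal of the 5 genes (vertical axis, 1 panel each) in every array, by group label (horizontal axis); points are arrays, black bars label means, and the line separates the 6 sirolimus labels. IKZF2 is lowest in the Bela.Siro labels, IL2RA is above the healthy mean in all 15 transplant labels, and the label means of FOXP3 lie between 4.57 and 5.09.

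IKZF2 was lower over the pooled sirolimus labels on its chosen probe set, but not each of them lay below every other label. Bela.F, without sirolimus, averaged 4.80, below FR104.Siro.F (4.93) and Siro.F (4.87). Bela.Siro.D14 had 4.43, 3.68 and 4.47 in animals 38, 42 and 49, Bela.Siro.D30 had 5.29, 3.28 and 3.47 in the same animals, and Bela.Siro.F had 5.36 and 3.74 in animals 38 and 42. FR104.Siro.D14 had 4.59, 4.02, 5.15 and 4.82, FR104.Siro.F 5.30, 4.03, 5.14 and 5.23, and Siro.F 4.83, 5.49, 4.25 and 4.91. Animal 42 was low on all 3 of its arrays, while animal 38 moved from 4.43 to above 5. The healthy arrays ran from 3.94 through a median of 5.47 to 6.73.

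All 6 sirolimus means were below the healthy mean of 5.50 ± 0.60 (SD, n = 34), and the lowest 4 of the 16 labels, Bela.Siro.D30, Bela.Siro.D14, Bela.Siro.F and FR104.Siro.D14, all carry sirolimus. Each step between neighbours in the order was smaller than the larger SD of the pair, so no label is set apart from the next. Of the 20 sirolimus arrays 4 lay below every healthy array, and 7 below every array of the 7 other allogeneic labels. The 4 are the arrays of animal 42 and the Bela.Siro.D30 array of animal 49. The 7 add only single arrays of animals 13, 26 and 29, so repeated arrays of few animals make up these counts. How common such counts are over all genes was not determined.

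Set against the 7 other allogeneic labels, with every label weighted equally, the 6 sirolimus labels were lower in IKZF2 by a log2 difference of -0.62 ± 0.19 (SE; limma, adjusted p = 0.0132), a level 1.54-fold lower. Against all 10 other labels the difference was -0.73 ± 0.18 (adjusted p = 0.00115). In these comparisons 25.1% and 29% of all genes tested were called, so a call is common there. The 3 pooled comparisons share arrays, and so are not separate evidence. In these comparisons across labels the sides also differ in other agents, all tacrolimus arrays being without sirolimus. These agents cannot be told apart from sirolimus there. In final samples alone, averaging the 3 pairs that differ by sirolimus, IKZF2 did not pass, with -0.20 ± 0.28 (adjusted p = 0.736), where 11.1% of genes were called. Without the Bela.Siro.F array of animal 42 the first difference was -0.48 with an adjusted p of 0.0773, and the difference in final samples turned to 0.07.

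The second probe set of IKZF2 gave smaller values and no call, with -0.18 ± 0.12 (limma adjusted p = 0.279) against the other allogeneic labels and -0.27 ± 0.11 (adjusted p = 0.0605) against all others. The 2 probe sets correlated at r = 0.71 over the 81 arrays. On that second probe set Bela.Siro.D14 averaged 4.46 ± 0.26 (SD, n = 3) and the healthy arrays 4.97 ± 0.39 (SD, n = 34).

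Myeloid markers were high in the labels where IKZF2 was lowest: their mean was 8.18 in Bela.Siro.D14, 8.01 in Bela.Siro.D30 and 8.37 in Bela.Siro.F, and over the 16 label means it correlated with IKZF2 at r = -0.54. Bela.F, with the highest myeloid mean, had an IKZF2 of 4.67, 4.90 and 4.82, and FR104.Siro.D14, with 6.71, one of 4.02 to 5.15. Between the sirolimus and the other allogeneic labels 0 myeloid markers were called, and their part in the level of IKZF2 was not tested.

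Within single batches, which the labels number 1 to 4, the difference from the other allogeneic labels was 0.04 in batch 1, -0.12 in batch 2, -0.95 in batch 3 and -0.33 in batch 4, with adjusted p from 0.0880 to 0.980. Batch 3 holds the belatacept and tacrolimus arrays, batch 4 those of FR104, and batches 1 and 2 only Siro.F and NoRx.F among these labels. The difference was therefore carried by batch 3 in size, and no batch alone gave a call.

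At day 14, the 3 Bela.Siro arrays had 3.68 to 4.47 and the 3 Tac.Mtx arrays 5.16 to 6.18, a difference of -1.53 ± 0.49. It did not pass (limma adjusted p = 0.316), in a comparison where 0.00847% of genes were called. These labels also differ by belatacept against tacrolimus with methotrexate, which cannot be told apart from sirolimus. Against the healthy arrays IKZF2 was lower in Bela.Siro.D14, by -1.31 ± 0.38 (limma adjusted p = 0.0466, 2.52% of genes called), and in Bela.Siro.D30, by -1.49 ± 0.38 (adjusted p = 0.00913, 7.17% called). The day 14 call was lost when any 1 of the 3 arrays was left out (-1.05 to -1.45), and the day 30 call without animal 42 (-1.13) or animal 49 (-1.22). Animal 49 had its own healthy array, at 5.78, against 4.47 at day 14 and 3.47 at day 29.

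IKZF4 was higher over the pooled sirolimus labels on the chosen probe set, but not in each of them. FR104.Siro.D14 had 8.86, 8.14, 8.09 and 8.03, FR104.Siro.F 8.30, 8.15, 8.25 and 7.96, Bela.Siro.F 8.49 and 7.89, Bela.Siro.D14 7.48, 8.24 and 7.86, Bela.Siro.D30 7.92, 7.86 and 7.10, and Siro.F 7.93, 7.61, 8.23 and 7.64. The other allogeneic arrays ran from 7.04 through a median of 7.69 to 8.43, and the healthy arrays from 7.09 through 7.61 to 7.98. The 3 highest label means are FR104.Siro.D14, Bela.Siro.F and FR104.Siro.F. The next, Tac.Mtx.D14 (7.98), FR104.D14 (7.95) and FR104.F (7.93), carry no sirolimus. They exceed Bela.Siro.D14 (7.86), Siro.F (7.85) and Bela.Siro.D30 (7.63). All 6 sirolimus means exceed the healthy mean of 7.59, and 10 of 20 sirolimus arrays exceed every healthy array, against 5 of the 21 other allogeneic ones. How many of all genes have such counts was not determined.

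In final samples the mean of the 3 sirolimus pairs was 0.45 ± 0.13 (SE; limma adjusted p = 0.0187), or 1.37-fold. Across labels the difference was 0.33 ± 0.09 against the 7 other allogeneic labels (adjusted p = 0.00593) and 0.39 ± 0.09 against all 10 (adjusted p = 0.000426). No single pair passed. The widest was Bela.Siro.F (8.49 and 7.89) against Bela.F (7.04, 7.43 and 7.85), at 0.75 ± 0.26 (limma adjusted p = 0.229, 0.457% of genes called). Siro.F against NoRx.F gave 0.37 ± 0.21 (adjusted p = 0.266, 12.1% called). The call in final samples was lost without the Bela.F array of animal 46 (0.38), the Bela.Siro.F array of animal 38 (0.35) or the FR104.F array of animal 24 (0.40).

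Within batches, the difference from the 7 other allogeneic labels kept its sign, at 0.28, 0.46, 0.33 and 0.28 in batches 1 to 4, with no call in any one. Without the 8 arrays with high spike-in signal the difference in final samples was 0.34 and that across allogeneic labels 0.23, and both calls were lost. The difference against all 10 labels was 0.30. This setting leaves out the whole FR104.Siro.D14 label, which had the highest IKZF4 mean, and keeps only animal 42 in Bela.Siro.F. These are therefore other comparisons, and what part the spike-in signal has in the level of IKZF4 was not tested.

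The other probe set of IKZF4 did not show the difference. It gave -0.07 ± 0.08 in final samples, 0.09 ± 0.06 across allogeneic labels and 0.07 ± 0.05 against all others, none called (limma adjusted p from 0.294 to 0.720), and its correlation with the chosen probe set was r = 0.30 over 81 arrays. The direction in final samples thus depends on the probe set, and the files do not say which transcripts each one reads. For LRRC32 the second probe set, above the filter value in 4 of 81 arrays, gave 0.29, 0.07 and 0.09 in the 3 pooled comparisons, none called.

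**Figure D2:**
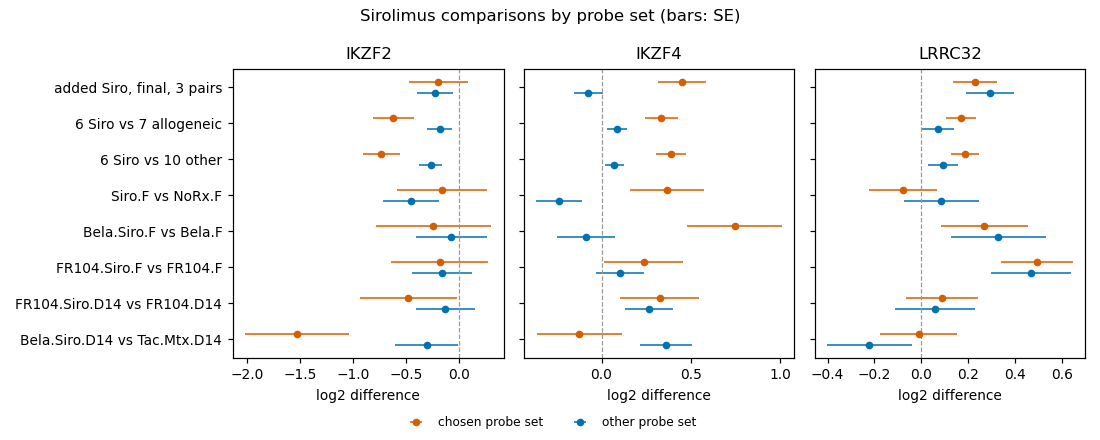
Log2 difference (horizontal axis) in the 8 sirolimus comparisons (vertical axis) for the chosen and the other probe set of IKZF2, IKZF4 and LRRC32; points are limma estimates and bars 1 SE. For IKZF4 the chosen probe set lies right of 0 in 7 of 8 comparisons and the other probe set on both sides of it.

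Against healthy controls IKZF4 was higher in FR104.Siro.D14, by 0.69 ± 0.19 (limma adjusted p = 0.00793, 18.2% of genes called). Its 4 arrays ran from 8.03 to 8.86, against a healthy maximum of 7.98. With the spike-in signal, high on these 4 arrays, as a covariate the difference was 0.25 (adjusted p = 0.643) and not called. As all 4 lie above every healthy array in that signal, label and spike-in signal cannot be told apart there. IKZF4 was also higher in FR104.Siro.F, by 0.58 ± 0.19 (adjusted p = 0.0352, 10.1% called). The first call also rested on animal 26, without which it was 0.50 with an adjusted p of 0.0710, and the second was lost without animal 26, 27 or 29 (0.53 to 0.58).

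IL2RA was higher than in healthy animals in 7 of the 15 transplant labels, with and without sirolimus, and did not pass in the other 8. Healthy arrays ran from 5.70 through a median of 6.15 to 6.89, and NoRx.F had 8.12, 6.95, 7.55 and 7.05. Siro.F ran from 6.99 to 7.36, FR104.F had 7.88, 7.12 and 6.61, FR104.D14 6.54, 7.34 and 7.79, and Bela.F 8.19, 6.82 and 6.88. All 4 arrays of NoRx.F and all 4 of Siro.F stood above the highest healthy array, while the labels with CD28 blockade overlap it. The share of all genes with such a separation was not counted. Tac.Mtx.F had 7.42, 5.94 and 5.60, from above the healthy range to below it.

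IL2RA was above the healthy mean of 6.21 ± 0.31 (SD, n = 34) in 15 of 15 transplant labels and called higher in 7; these comparisons share the 34 healthy arrays. In NoRx.F the difference was 1.20 ± 0.25 (SE; limma adjusted p = 6.64e-05, 2.29-fold), where 35.4% of genes were called. In Siro.F it was 0.95 ± 0.24 (adjusted p = 0.00301, 14.6% called) and in Bela.F 1.09 ± 0.27 (adjusted p = 0.00212, 17.6% called). In FR104.D14 it was 1.02 ± 0.30 (adjusted p = 0.0252, 5.39% called) and in FR104.F 1.00 ± 0.30 (adjusted p = 0.0190, 10.7% called). FR104.Siro.D14 and FR104.Siro.F gave 0.86 ± 0.27 (adjusted p = 0.0215) and 1.09 ± 0.27 (adjusted p = 0.00483).

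IL2RA did not pass in the labels Tac.Mtx.D14 (0.58, 1.47% of genes called), Tac.Mtx.D30 (0.05, 3.46%) and Tac.Mtx.F (0.11, 14.1%). It did not pass in Auto.D14 (0.41, 4.4%), Auto.D36 (0.39, 16.7%), Bela.Siro.D14 (0.58), Bela.Siro.D30 (0.43) or Bela.Siro.F (0.75, 2.84% called) either. Whether these labels differ from the 7 with a call was not tested.

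The calls in NoRx.F and Siro.F held with any 1 of their arrays left out. That in Bela.F was lost without animal 47 (0.64, adjusted p = 0.214). Those of the FR104 labels were lost without animal 22 or 23 (FR104.D14, 0.74 to 0.96, and FR104.F, 0.66 to 1.04), without animal 27 or 29 (FR104.Siro.D14, 0.72 to 0.75) or without animal 29 (FR104.Siro.F, 0.87). In FR104.D14 and FR104.Siro.F the calls were also lost without the arrays of high spike-in signal (0.74 and 0.87). In FR104.Siro.D14, where every array was high in that signal, the call was lost with the spike-in covariate (0.53, limma adjusted p = 0.492). A further covariate was the actin difference, the signal of the 3' minus that of the 5' probe set. With it the calls in FR104.D14 and FR104.F were lost too. All arrays of these labels (maxima 0.373 and 0.425) lay below the healthy minimum of 0.430 in that difference. Label and actin difference cannot be told apart there.

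Each of the 11 animals with a healthy array of its own was higher in IL2RA after transplantation, in 17 of 17 arrays, by 0.08 to 1.86 with a median of 0.52. The share of all genes that were higher in every such array was not counted. Animals 16 and 28 had their healthy array in another batch than their transplant arrays. For FOXP3 the count was 7 of 17, for IKZF2 4 of 17, for IKZF4 9 of 17 and for LRRC32 11 of 17. Of the 7 sirolimus arrays among them, from 5 animals, 6 were lower in IKZF2 than the animal's healthy array.

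Cell cycle genes and myeloid markers moved with IL2RA in part. The mean of 8 cell cycle genes was 6.31 in healthy animals and 9.22 in NoRx.F, with 8 of 8 genes higher there; in FR104.Siro.D14 it was 6.11 with 0 of 8 called, although IL2RA was called higher. The mean of the 7 myeloid markers was 7.99 in NoRx.F, 8.51 in Bela.F and 6.71 in FR104.Siro.D14. Over the 16 label means IL2RA correlated with the cell cycle mean at r = 0.47 and with the myeloid mean at r = 0.54, as a description, since the labels share animals and batches. Their part in the level of IL2RA was not tested.

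No difference in IL2RA between sirolimus and other labels passed: -0.16 ± 0.19 (95% interval -0.55 to 0.22; limma adjusted p = 0.671) in final samples, 0.05 ± 0.13 (adjusted p = 0.798) against the other allogeneic labels and 0.19 ± 0.12 (adjusted p = 0.239) against all others. For FOXP3 these were 0.18 ± 0.12 (95% interval -0.05 to 0.42; adjusted p = 0.373), 0.06 ± 0.08 (adjusted p = 0.639) and 0.04 ± 0.07 (adjusted p = 0.710).

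**Figure D3:**
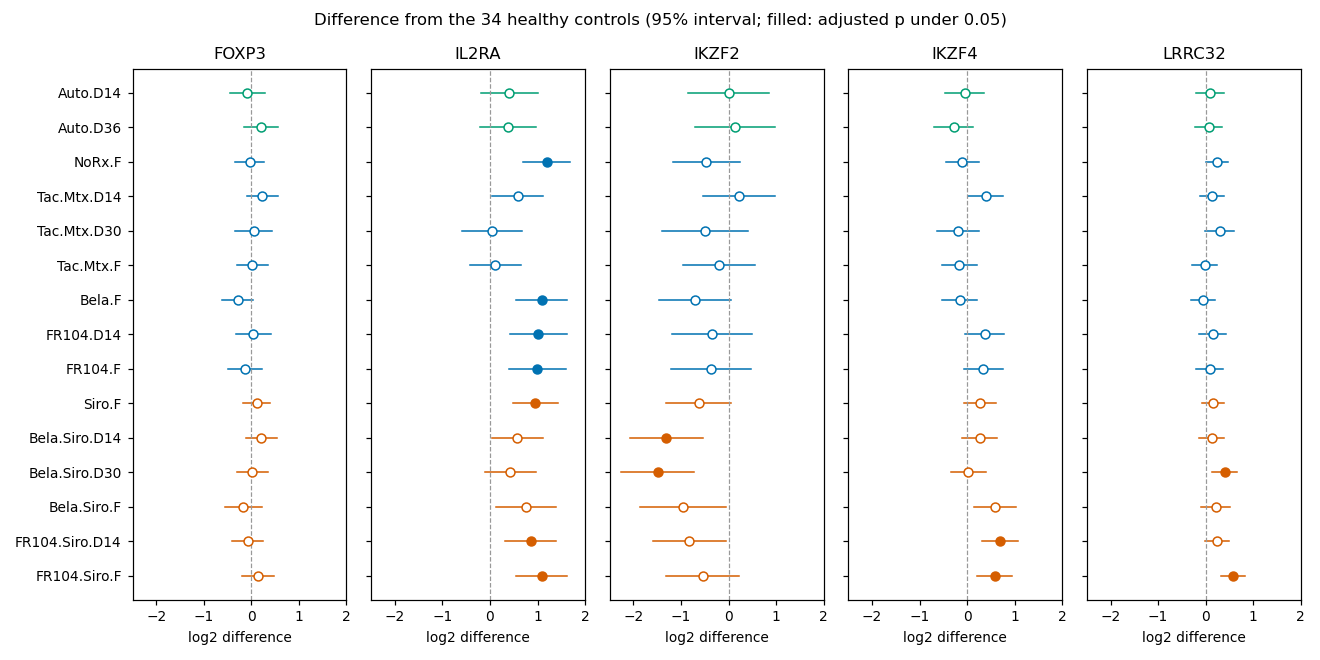
Log2 difference from the 34 healthy arrays (horizontal axis) for each of the 15 transplant labels (vertical axis) and each gene; points are limma estimates, bars 95% intervals, filled points adjusted p under 0.05. IL2RA is right of 0 in all 15 labels and filled in 7, and IKZF2 is filled in Bela.Siro.D14 and Bela.Siro.D30.

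LRRC32 was slightly higher over the pooled sirolimus labels, but not in each of them. FR104.Siro.F had 6.93, 6.88, 6.50 and 6.45 against 6.16, 6.33 and 6.10 in FR104.F. Bela.Siro.D30 had 6.90, 6.23 and 6.39 and Bela.Siro.F 6.57 and 6.08, against 6.08, 5.96 and 6.13 in Bela.F. Siro.F, with a mean of 6.28, lay below NoRx.F, with 6.35, and Bela.Siro.D14 and Tac.Mtx.D14 were close, at 6.24 and 6.25. Healthy arrays ran from 5.80 through a median of 6.10 to 6.48. FR104.Siro.F and Bela.Siro.D30 had the highest means, followed by Tac.Mtx.D30 and NoRx.F, and no step between neighbours in the order was as large as the larger SD of the pair.

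The difference was 0.17 ± 0.06 against the other allogeneic labels (SE; limma adjusted p = 0.0479, 1.12-fold) and 0.19 ± 0.06 against all 10 labels (adjusted p = 0.0132), and 0.23 ± 0.09 in final samples (adjusted p = 0.106). The first is at the edge of the threshold: leaving out any of 25 single arrays of 41 ended it, with differences from 0.13 to 0.21 over all 41, and with the animal as a replicate block it was 0.16 (adjusted p = 0.0969). Of the 47 single arrays left out in turn, the Bela.Siro.F array of animal 38 ended the second (0.15, adjusted p = 0.0686). It was also lost with the spike-in signal as a covariate (0.15, adjusted p = 0.0741) and on the other probe set. Without the arrays of high spike-in signal, and so without FR104.Siro.D14, it was lost too (0.18). Within batches the first was -0.08, -0.13, 0.16 and 0.29 in batches 1 to 4, so the sign held in batches 3 and 4 only.

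FR104.Siro.F against FR104.F gave 0.49 ± 0.15 for LRRC32 (adjusted p = 0.500), in a comparison where 0.00847% of genes were called. Against healthy arrays LRRC32 was higher in FR104.Siro.F, by 0.58 ± 0.13 (limma adjusted p = 0.00199, 1.49-fold), which held with any 1 array left out. It was also higher in Bela.Siro.D30, by 0.40 ± 0.13 (adjusted p = 0.0441), which was lost without animal 38 (0.20) or 49 (0.46). Platelet markers, of which 7 were measured, had a label mean of 7.18 in FR104.Siro.F and 6.64 in Bela.Siro.D30 against 6.91 in healthy animals, and 0 of 7 were called in either label.

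Of the 25 tests of the 5 genes in the 5 single sirolimus pairs, 0 passed by limma and 3 had an unadjusted p under 0.05. Among these pairs, Bela.Siro.D14 against Tac.Mtx.D14 also differs by belatacept against tacrolimus with methotrexate, so sirolimus cannot be told apart there. The pair FR104.Siro.D14 against FR104.D14 gave 0 of 5 where 4.46% of all genes were called, with 0.32 ± 0.22 for IKZF4 and -0.48 ± 0.46 for IKZF2. Of the tests of whether the sirolimus effect differed between FR104, belatacept and no other agent, or between FR104 times, 0 members passed. Hardly any genes were called in them, so this says little about the members. The shares were 0.0254% for FR104 against belatacept, 0.271% for FR104 against sirolimus alone, 0.0932% for belatacept against sirolimus alone and 0% between FR104 times. The largest difference for LRRC32 was FR104 against sirolimus alone, 0.57 ± 0.21 (limma adjusted p = 0.270).

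**Figure D4:**
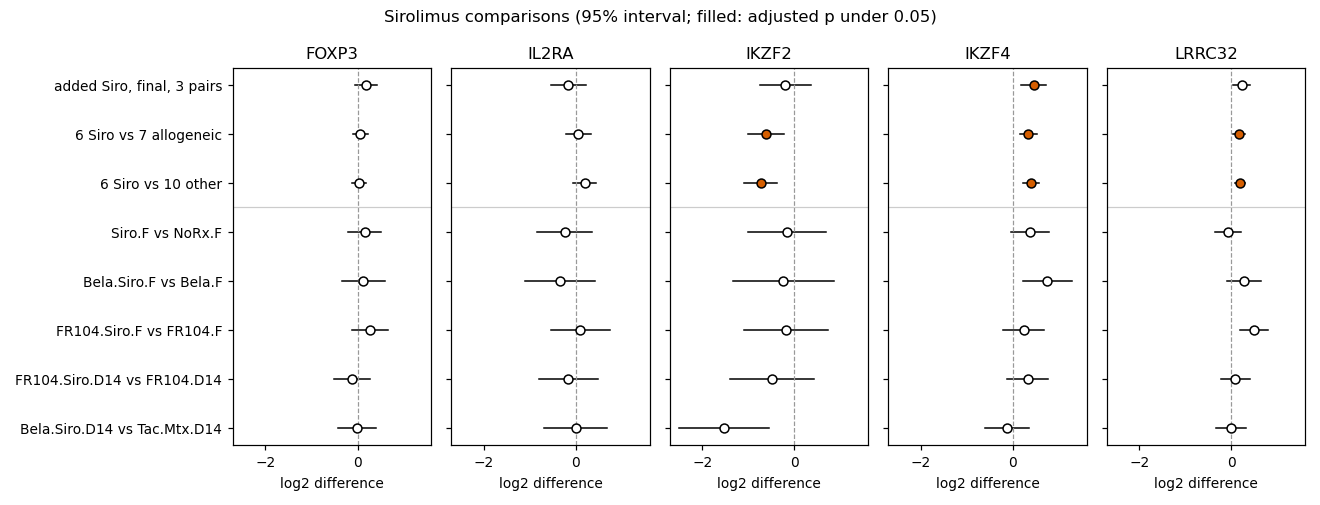
Log2 difference between sirolimus and reference labels (horizontal axis) in 3 pooled comparisons, above the line, and 5 single pairs, below it (vertical axis), for each gene; points are limma estimates, bars 95% intervals, filled points adjusted p under 0.05. IKZF4 is filled in all 3 pooled comparisons, IKZF2 and LRRC32 in 2, and no gene in a single pair. The pair Bela.Siro.D14 against Tac.Mtx.D14 differs in other agents too.

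Later and earlier arrays of the same animals were compared in 4 sets. LRRC32 was higher later in 4 of 4 animals from FR104.Siro.D14 to FR104.Siro.F, by 0.05 to 0.65, and in 3 of 3 from Bela.Siro.D14 to Bela.Siro.D30, by 0.01 to 0.42. In both Bela.Siro animals with a final array, LRRC32 was lower there than at day 30. Animal 38 went from 6.90 at day 30 to 6.57, still above its day 14 value of 6.48. Animal 42 went from 6.23 to 6.08, below its day 14 value of 6.22. In FR104 and in Auto it was lower later in 2 of 3 animals. IL2RA was higher in the later array of 4 of 4 FR104.Siro animals, FOXP3 lower in 3 of 3 Bela.Siro animals and IKZF4 lower in 3 of 3 Auto animals. None of the 20 tests passed by limma, and 1 had an unadjusted p under 0.05, LRRC32 in FR104.Siro, at 0.34 ± 0.14 (adjusted p = 0.160). The shares of all genes called were 3.1% for FR104.Siro, 0.974% for Auto, 0.00847% for Bela.Siro and 0% for FR104.

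**Figure D5:**
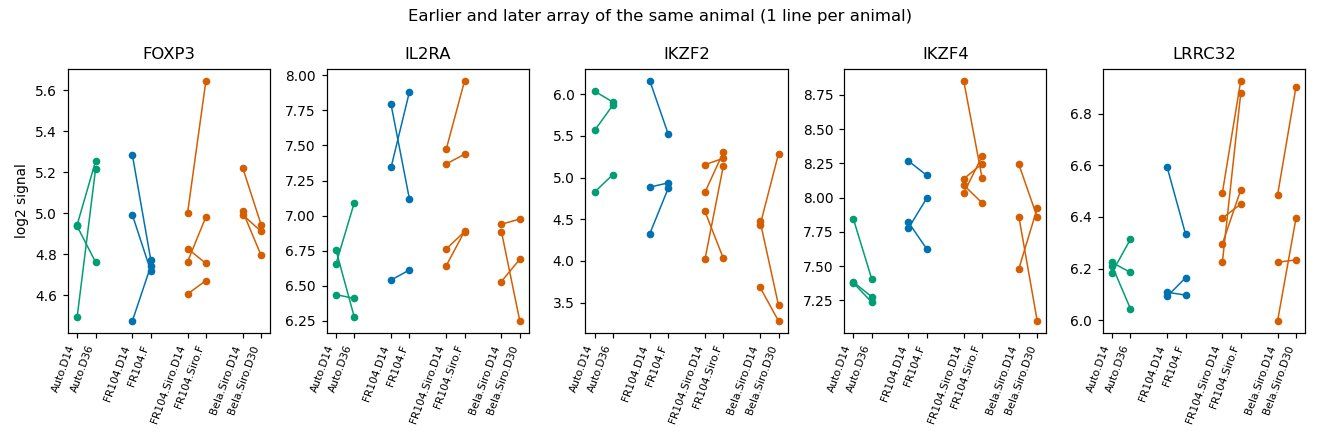
Log2 signal (vertical axis, a scale for each gene) of the earlier and later array of the same animal (horizontal axis), 1 line per animal, for Auto, FR104, FR104.Siro and Bela.Siro. The LRRC32 lines of all 4 FR104.Siro and all 3 Bela.Siro animals slope upward.

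More of the other genes of these cells were called lower than higher in the sirolimus labels, though not all followed 1 direction. Of 19 tested genes known from regulatory T cells, beside the 5, 1 was higher and 5 lower in the sirolimus labels than in the other allogeneic labels, with a median difference of -0.22 against 0.00 over all genes tested, of which 25.1% were called. The lower ones were FCRL3, a receptor of the Fc receptor-like family (-1.20 ± 0.20, limma adjusted p = 9.75e-06), TNFRSF1B, a TNF receptor (-0.62 ± 0.14, adjusted p = 0.000586), HPGD, which breaks down prostaglandins (-0.96 ± 0.26), and the checkpoint receptors TIGIT and CTLA4 (-0.39 and -0.51). The higher one was EBI3, a subunit of interleukin 35 (0.23 ± 0.06, adjusted p = 0.00326). In final samples 1 was higher, the decoy receptor IL1R2 (0.50 ± 0.14), and 2 lower, TNFRSF1B and HPGD, where 11.1% of all genes were called. Of 4 tested genes known to be low in these cells, PDE3B, a phosphodiesterase, was lower in both comparisons (-0.34 and -0.70), and CD40LG, the ligand by which T cells help B cells, was higher in final samples (0.54 ± 0.19, limma adjusted p = 0.0467).

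Of 10 tested genes of the interleukin 2 and STAT5 pathway, in which IL2RA acts, 5 were higher and 1 lower against the other allogeneic labels, with a median of 0.26 and 25.1% of all genes called. The other 4 were not called. The higher ones are SOCS2 (1.52 ± 0.28, limma adjusted p = 7.6e-05) and CISH (0.76 ± 0.17, adjusted p = 0.000886), feedback inhibitors induced by STAT5, the survival gene BCL2 (0.52 ± 0.09), the kinase PIM1 (0.44 ± 0.07) and SOCS3 (0.51 ± 0.13). The lower one is IL2RG, the common gamma chain (-0.26 ± 0.06, adjusted p = 0.000579). SOCS2 averaged 10.41 in FR104.Siro.F, 9.11 in FR104.F and 6.57 in healthy animals, and 18 of 20 sirolimus arrays had a mean of the 10 genes above every healthy array, against 12 of 21 other allogeneic arrays. Over the 16 label means this mean correlated with IKZF4 at r = 0.77 and with IL2RA at r = 0.28, as a description only.

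Of 12 tested genes of TGF-beta activation and signalling, the axis of LRRC32, the receptor chain TGFBR1 was higher (0.37 ± 0.08, limma adjusted p = 0.000392) and LTBP1 and TGFBR2 lower (-0.52 and -0.20) in the same comparison, with a median of 0.01. These 3 calls of 12 are near the 25.1% of all genes called, as are those of the next list. Of 17 tested partners and regulators of FOXP3, FOXP1 was higher (0.27 ± 0.07), and UHRF1, a factor of DNA methylation, RUNX3 and KAT5 were lower (-0.98, -0.66 and -0.22), with a median of 0.00. In the Ikaros family IKZF3 (Aiolos) was lower against all 10 other labels (-0.56 ± 0.15, adjusted p = 0.00424) and did not pass against the allogeneic ones.

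Proliferation and effector genes were lower in the same labels. All 8 cell cycle genes were lower, among them MKI67 (-1.25 ± 0.17, limma adjusted p = 4.01e-07), as were LAG3, GZMB and HAVCR2 of 4 activation genes. CD8A and CD8B were both lower (-0.41 and -0.47), and 0 of 2 CD4 lineage genes passed. No T cell, NK cell, B cell, myeloid or platelet marker was called in this comparison, and of the erythroid markers AHSP was lower (-0.51). Whether the share of CD4 cells has a part in the values of the 5 genes was tested only with the CD8 minus CD4 level as a covariate, added after the data were seen: IKZF2 was then -0.72 (adjusted p = 0.00854) and IKZF4 0.31 (adjusted p = 0.0200) against the other allogeneic labels. The calls of IKZF4 in final samples (0.41, adjusted p = 0.0790) and of LRRC32 against the other allogeneic labels (0.17, adjusted p = 0.0671) were lost with it.

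Among the 34 healthy animals the 5 genes were not shown to vary together. Over their 10 pairs the highest Pearson r was 0.39, for IL2RA and LRRC32 (permutation p = 0.0244, adjusted 0.244; Spearman rho 0.33, permutation p = 0.0543), which fell to 0.22 without the 2 arrays farthest from the median of IL2RA. For IL2RA and IKZF4, rho was 0.40 (permutation p = 0.0196, adjusted 0.196) and r 0.31 (permutation p = 0.0724), with r within batches 2, 3 and 4 of 0.42, 0.78 and -0.51. No pair passed the adjustment, which does not show that the genes vary independently.

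After label means were removed, the gene most like IKZF2 over the 81 arrays was its relative IKZF3 (r = 0.71, and 0.77 among the 34 healthy arrays), then IRF2 (0.64) and AHCYL1 (0.63). For IKZF4 they were DNMT3A (0.62), RAD54L2 (0.61) and NAA25 (0.56), and for IL2RA NIM1K (0.59), DAPP1 (0.58) and TUBB (0.58). FOXP3 was followed by PAFAH1B3 (0.53), LMNA (0.51) and SPINT2 (0.50), and LRRC32 by DNAI1 (0.53), RETREG3 (0.47) and IL23R (0.45). None of these 15 genes is one of the other 4 members.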

How the data were processed

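The 5 genes and the gene lists were chosen with earlier results of these data known. Per the submitters' processing notes, the authors used RMA in affy; what was deposited is a log2 signal for each probe set, and no versions are given. Among healthy controls the F test between batches gave p above 0.95 for 61.0% of 52865 probe sets, so a batch adjustment, whose method is not given in the sources used here, was made before deposit. Group, animal and batch came from the labels.

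The gene table named 24969 probe sets with 1 gene, 361 with several and 27535 with none. Genes above the 40th percentile (4.65) in at least 2 arrays were tested with limma 3.58.1 in R 4.3.3: lmFit with group and batch on all 81 arrays, eBayes with a trend, 2-sided, Benjamini-Hochberg adjusted p under 0.05 over 11806 genes. Labels had equal weight in pooled comparisons. The code was tested on simulated data. Replicate numbers name animals, so they pair arrays over time: each of 13 pairs correlated best with its own animal (r of 0.21 to 0.66), and the animal block, by duplicateCorrelation with statmod 1.5.0, had a correlation of 0.19. Precision is limited by the number of arrays. Of other lists the 3 genes with the smallest adjusted p in each pooled comparison were named, and of genes most like a member the 3 of highest r; further genes named to complete a count were chosen after their values were seen. Alternatives covered batch, filter, probe sets, normalization, covariates, the arrays fitted and each array left out.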

Additional observations from a re-analysis of the deposited data

Results flagged for a closer look

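In groups of 4 or more arrays, 3 values stood apart from the rest of their label by Dixon's criterion; about 1 group in 20 would by chance. FOXP3 was 5.183 in NoRx.F animal 51, the other 3 arrays lying between 4.663 and 4.734. IKZF2 was 4.03 in FR104.Siro.F animal 26, the others between 5.14 and 5.305. IKZF4 was 8.855 in FR104.Siro.D14 animal 26, the others between 8.032 and 8.137, on a label whose 4 arrays all had high spike-in signal.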

How the results depend on the processing

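Adjusted p-values are limma's, and values are log2 differences; the cause of a change was not tested unless a setting has fewer arrays by construction. Leaving out the batch term changed the call of 0 of 28 results. As a batch adjustment was made before deposit, this setting could change little. With the animal as a replicate block, LRRC32 against the other allogeneic labels was 0.16 and no longer called; no other of the 28 calls changed. That LRRC32 difference was lost under most settings: 0.17 with no filter, 0.17 after quantile normalization again, 0.12 with the mean of probe sets, 0.13 with the spike-in covariate, 0.16 with only the groups compared, 0.16 with day 14 arrays only in FR104.Siro.D14, 0.17 with the CD8 minus CD4 covariate and 0.17 without the arrays of high spike-in. The last 2 settings were chosen after seeing the data.

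Single batches have fewer arrays. In batch 1, IKZF2 was -0.0296 against all 10 labels and 0.0405 both against the allogeneic labels and in final samples, and in that order IKZF4 was 0.21, 0.28 and 0.28 and LRRC32 0.0085, -0.0814 and -0.0814; IL2RA against the allogeneic labels was -0.38. In batch 2, IKZF2 was -0.59 and -0.12, IKZF4 0.42, 0.46 and 0.46, LRRC32 0.0390, -0.13 and -0.13, and IL2RA in final samples 0.13. In batch 3, IKZF2 was -1.01 and -0.95, IKZF4 0.32, 0.33 and 0.75, and LRRC32 0.18 and 0.16. In batch 4, IKZF2 was -0.57 and -0.33, IKZF4 against the allogeneic labels 0.28 and in final samples 0.24, LRRC32 against the allogeneic labels 0.29, and IL2RA -0.0370 against the allogeneic labels and 0.0897 in final samples. Of the 5 genes, 0 were called in batches 1, 2 and 3 alone in any pooled comparison, and 0 in batch 4 against the allogeneic labels and in final samples. Against healthy arrays 0 were called for Siro.F in batch 1, NoRx.F in batch 2 and Bela.Siro.D14 in batch 3, and 1 for Bela.Siro.D30 in batch 3.

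With the spike-in covariate IKZF4 was 0.22 against the allogeneic labels and 0.32 in final samples, LRRC32 against all 10 labels 0.15 and IL2RA against the allogeneic labels -0.0316; 1 gene was called against the allogeneic labels and 0 in final samples, FR104.D14 and FR104.Siro.D14. Without the arrays of high spike-in, which leaves out all of FR104.Siro.D14, IKZF4 was 0.23 and 0.34 and LRRC32 0.18. In that setting 1 gene was called in FR104.Siro.F and 0 in FR104.D14. With the CD8 minus CD4 covariate IKZF4 in final samples was 0.41, where 0 genes were called, FOXP3 against all 10 labels -0.0122 and IL2RA against the allogeneic labels -0.0882. With the actin covariate 0 genes were called in FR104.D14 and FR104.F, where IL2RA had been called. With day 14 arrays only, IL2RA against the allogeneic labels was -0.0059 and 1 gene was called in FR104.Siro.D14.

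On the other probe set IKZF2 was -0.27 against all 10 labels and -0.18 against the allogeneic ones, IKZF4 0.0708, 0.0853 and, in final samples, -0.0745, and LRRC32 0.0929 and 0.0699. With the mean of probe sets IKZF4 in final samples was 0.19 and LRRC32 0.26, now called, with 0 genes called in Bela.Siro.D14 and 1 in Tac.Mtx.D30. With no filter 0 were called in Bela.Siro.D14 and 1 in Bela.Siro.D30. With only the groups compared IKZF4 in final samples was 0.44, with 0 genes called there and 1 in Bela.Siro.D30.

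Leaving out each array in turn, IKZF2 ran from -0.47 to 0.0749 in final samples, -0.76 to -0.48 against the allogeneic and -0.87 to -0.60 against all labels; IKZF4 from 0.35 to 0.55, 0.28 to 0.38 and 0.34 to 0.44; and LRRC32 against the same labels from 0.13 to 0.21 and 0.15 to 0.23. Genes called ran from 0 to 1 in final samples, 2 to 3 in both other pooled comparisons, 0 to 1 in Bela.F, Bela.Siro.D30, FR104.D14 and FR104.F, 0 in Bela.Siro.D14, 1 to 2 in FR104.Siro.D14 and 1 to 3 in FR104.Siro.F. The signal of FOXP3 lay near the filter value, which limits what could be detected for it.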
